A study of Homo sapiens with 4 samples.

Results

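The comparison set U2-OS cells treated with OGE against HOS cells treated with OGE, gene by gene, on 1 array for each line. HOS and U2-OS are established human osteosarcoma lines, and both were exposed to 600 μg/mL OGE for 24 h. The untreated pair, with 0 μg/mL OGE over the same time and likewise 1 array per line, is given beside it and shares no array with it. The members are the genes measured by probe sets with exactly 1 gene symbol, 18417 in all, each represented by the probe set with the highest mean level. Of these, 11492 reached the floor in the treated pair, meaning that the higher of both arrays was at or above that array's own median over all probe sets. The series holds 4 arrays in all, and 2 of them form the treated pair. It was made to describe how OGE affects the growth and gene expression of these lines. The labels do not spell out OGE. Each line is a single established culture, so a difference between them is a difference between these cultures and not between kinds of tumour.

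Cells under chemical stress switch on a few conserved programmes. Heat shock factors raise chaperones, ATF4 and CHOP raise genes of amino acid supply and growth arrest, NRF2 raises antioxidant enzymes, and hypoxia-inducible factors raise glucose uptake and glycolysis.

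Levels are log2 RMA values, and a difference is the U2-OS level minus the HOS level, so a positive value means higher in U2-OS. With 1 array per group a difference has no replicate check, and it is described by its size. A gene was called higher or lower when the difference reached 1 (2-fold) and the gene was at the floor. The medians of the treated HOS and U2-OS arrays were 3.62 and 3.60, and these arrays correlated at r = 0.9651 over all probe sets. Precision is limited by the small number of arrays. RMA draws low levels together, so folds against a level of about 1 to 3 are understated or uncertain.

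Of 26 measured genes of the osteoblast lineage 13 were at the floor in the treated pair, and the mean level over all 26 was 4.03 in HOS and 3.85 in U2-OS. The type I collagen chain COL1A1 had treated levels of 9.07 in HOS and 7.71 in U2-OS, its partner COL1A2 of 7.53 and 4.38, and SPARC, which binds collagen in bone, of 7.95 and 7.93. The osteoblast transcription factor genes RUNX2 (3.94 and 4.01) and SP7 (4.66 and 4.08) lay just above the array medians. IBSP, SPP1, DMP1, MEPE and OMD, which mark mature osteoblasts and osteocytes, lay between 1.33 and 2.71 in the treated arrays, below the medians. COL1A2 (-3.15) and COL1A1 (-1.36) were lower in U2-OS, and the other 11 at the floor were not called. Markers of other cells were mostly low. PTPRC and CD3E of immune cells were at 1.33 and 1.95 in HOS and at 1.48 and 2.04 in U2-OS, and PECAM1 of endothelium at 2.27 and 2.33. None of 10 immune, 10 endothelial, 8 adipocyte or 10 chondrocyte markers was called. Only 4, 3, 3 and 4 of them were at the floor and could be called, beside a share of 11.1% called over all genes at the floor. So few members say little about whether the lines differ in these markers. Among 11 epithelial markers CDH1 was low (2.31 and 2.36), while the keratins KRT8 (9.21 and 7.84) and KRT18 (10.09 and 9.35) were high in both lines. KRT8 was lower in U2-OS by size and CLDN4 higher. Single markers were called in the neural (UCHL1 lower, NEFL higher), skeletal muscle (TNNT1 higher) and osteoclast lists (MMP9 higher). These lists had 3, 5 and 3 members at the floor.

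Between the treated lines 1279 genes were called, 11.1% of the genes at the floor. Of these, 562 (4.89% of the genes at the floor) were higher in U2-OS and 717 (6.24%) were lower. The median difference was -0.02 over the genes at the floor and -0.01 over all genes, and the median absolute difference at the floor was 0.32. A difference of at least 2 was reached by 171 genes, 89 of them higher in U2-OS, and one of at least 4 by 17 genes, 11 of them higher. Close to the threshold, 243 genes lay between 1 and 1.1 and 286 between 0.9 and 1, so many calls would move with a small shift. Without OGE, 1613 of 11605 genes at the floor were called (13.9%), 958 higher and 655 lower. Fewer genes thus separated the treated lines than the untreated lines in the deposited values. There, genes higher in U2-OS were the larger part without OGE and the smaller part with it. The size of that smaller part depended on the normalization. With OGE, genes higher in U2-OS were 43.9% of the called genes in the deposited values. They were 49.8% with quantile and 49.4% with cyclic loess normalization, so the directions were then nearly even.

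Most differences between the treated lines were already present without OGE. Of the 1279 genes, 683 (53.4%) were called in the same direction in the untreated pair, 332 higher and 351 lower in U2-OS. Another 324 had the same sign and at least 0.5 without OGE but missed the threshold there. For 272 genes (21.3%), 114 higher and 158 lower, the untreated difference was under 0.5 or of the opposite sign. Across 11069 genes at the floor in both pairs, the differences with and without OGE correlated at r = 0.7275 (Spearman's rho = 0.6147), a description across genes, which are not independent replicates. A difference with OGE minus the one without OGE equals the OGE change in U2-OS minus that in HOS, so these are not separate findings.

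**Figure D1:**
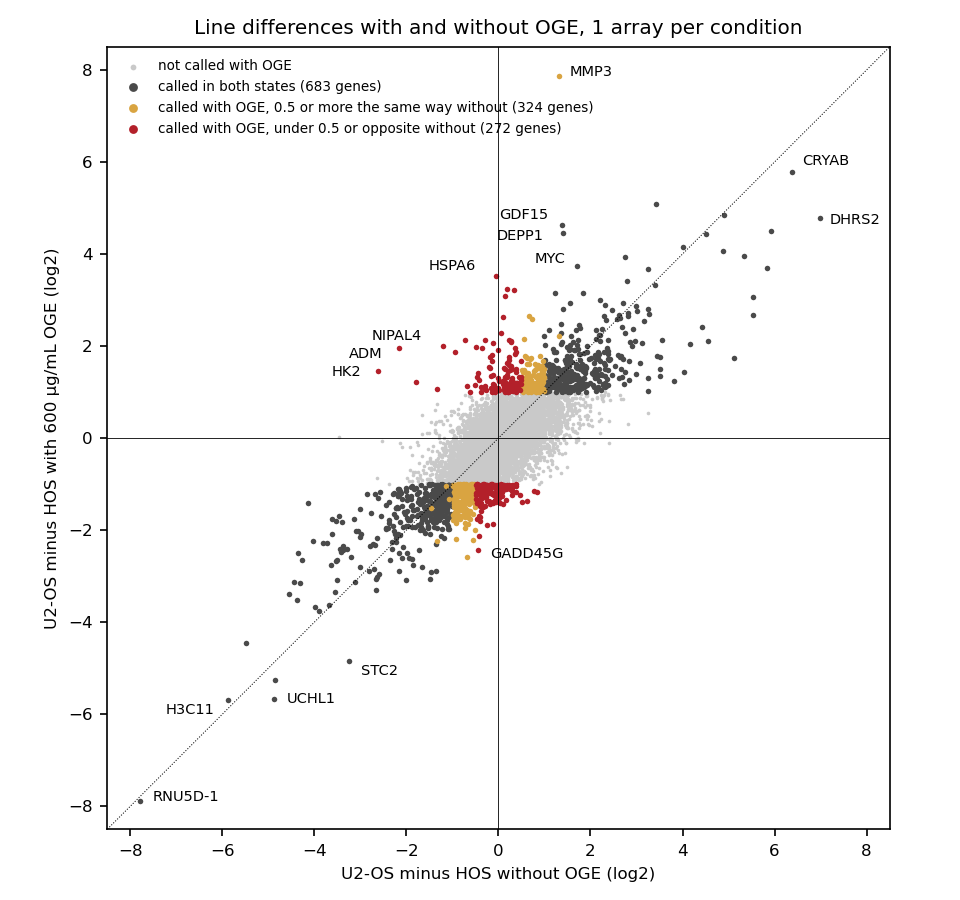
Difference between the lines without OGE (horizontal axis, log2) and with 600 μg/mL OGE (vertical axis, log2) for the 11492 genes at the floor, 1 point per gene and 1 array per condition. Dark points are the 683 genes called the same way in both states, red points the 272 genes under 0.5 or opposite without OGE, and MMP3 stands apart at 7.88 with OGE.

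A test across arrays is possible only for the mean difference of the lines over both states, not for the treated pair. In limma with terms for line and OGE, which has 1 residual degree of freedom before moderation, 354 of 18417 genes (1.92%) had an adjusted p under 0.05 for the line, 163 higher and 191 lower in U2-OS. The larger direction turned with the normalization, to 965 higher and 798 lower with quantile and 728 and 598 with cyclic loess normalization. Of the genes called between the treated lines 345 were among them, as were 344 of the 683 called in both states and 0 of the 272 that were close or opposite without OGE. The term averages both states, and of these 272 genes 103 had an unadjusted p under 0.05 in limma. The groups were sorted by how well the treated and untreated differences agreed, and the fit's residual holds that same agreement. So the split of 344 and 0 was largely set by the sorting. Whether each array stands for its own culture is not stated. The residual of this fit is the change of the line difference between the states. Any spread among the 4 arrays, which may be technical, enters that residual too. These p-values therefore do not measure a spread among replicate cultures.

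The largest difference was that of MMP3, stromelysin 1, a secreted protease that degrades proteoglycans and activates other matrix proteases. MMP3 was at 1.33 without and 1.83 with OGE in HOS, and at 2.64 without and 9.71 with OGE in U2-OS. The treated U2-OS array stood far above the other 3 arrays, with a difference of 7.88 (236-fold). MMP3 was below the floor without OGE, and its line term had an adjusted p of 0.204 in limma. GDF15, a stress-induced cytokine of the TGF-beta family, was at 2.61 and 4.57 in HOS and at 3.98 and 9.20 in U2-OS, a treated difference of 4.63. DEPP1, a FOXO target, was at 3.62 and 3.93 in HOS and at 5.02 and 8.38 in U2-OS, a difference of 4.45. MYC, a transcription factor of cell growth, was at 4.13 and 5.13 in HOS and at 5.83 and 8.88 in U2-OS, a difference of 3.75. For GDF15, DEPP1 and MYC U2-OS was higher in both states, by 1.37, 1.40 and 1.70 without OGE, and the treated differences were over 2 larger on the log2 scale. None of the 3 passed limma over both states (adjusted p 0.132, 0.124 and 0.0797).

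The other 11 of the 15 genes with the largest excess in treated U2-OS were also higher in untreated U2-OS, by at least 2.75. CRYAB, the small heat shock protein alpha-B crystallin, was at 1.89 and 2.30 in HOS and at 8.27 and 8.09 in U2-OS, a difference of 5.79 with OGE (adjusted p = 0.0117 in limma). ANKRD1, an ankyrin repeat protein and YAP target, was at 4.62 and 3.52 in HOS and at 8.05 and 8.60 in U2-OS, a difference of 5.08. IL18, a proinflammatory cytokine, was at 2.02 and 2.0 in HOS and at 6.93 and 6.84 in U2-OS, so its levels with and without OGE lay within 0.1 of each other in both lines. DHRS2, a short-chain dehydrogenase, was at 3.46 and 3.63 in HOS and at 10.44 and 8.42 in U2-OS. Its treated difference of 4.79 was thus smaller than the untreated one of 6.98. Genes normally restricted to the germ line were in this group, with MAGEB2 higher by 4.44, MAGEA4 by 4.15 and PAGE2B by 3.94. RFPL4A (4.51), TSPYL5 (4.06), the antisense RNA ZNF667-AS1 (3.95) and the protocadherin PCDHB5 (3.69) were lower in treated than in untreated U2-OS and still far above HOS. For all 11 the limma line term passed, with adjusted p-values between 0.0117 and 0.0417. That term includes the treated arrays by which these genes were picked, so passing it is no separate check.

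The 15 genes with the largest deficit in treated U2-OS were lower in untreated U2-OS as well, by at least 2.66, whereas 351 of all 717 genes called lower with OGE were called lower without it. RNU5D-1, a U5 small nuclear RNA of the spliceosome, was at 8.81 and 9.32 in HOS and at 1.02 and 1.42 in U2-OS, a difference of -7.90 (adjusted p = 0.0055 in limma). U5 copies are near identical, so its probes could read other copies. UCHL1, a ubiquitin hydrolase abundant in neurons, was at 8.43 and 9.09 in HOS and at 3.56 and 3.42 in U2-OS, a difference of -5.67. ATP6V0A1, a subunit of the proton pump that acidifies organelles, was at 5.97 and 6.48 in HOS and at 1.11 and 1.22 in U2-OS. In each of these both HOS arrays lay far above both U2-OS arrays. STC2, a secreted glycoprotein and ATF4 target, was at 6.31 and 7.57 in HOS and at 3.06 and 2.73 in U2-OS, so that its difference was -4.84 with OGE and -3.25 without. CLDN11, a tight junction claudin, was at 10.13 and 9.21 in HOS and at 4.65 and 4.75 in U2-OS, a difference of -4.46. GREM1, a secreted BMP antagonist, had a difference of -3.68, LPAR3, a lysophosphatidic acid receptor, of -3.53 and the testis-enriched chaperone HSPA2 of -3.38. The transcription factors FOXR1 (-3.76) and TFAP2C (-3.31), the methyltransferase BHMT2 (-3.62), the phospholipase PLBD1 (-3.35), the histone genes H3C11 (-5.69) and H1-5 (-3.14) and the collagen chain COL1A2 (-3.15) made up the rest. All 15 passed the limma line term, with adjusted p-values between 0.0055 and 0.0405. Here too the term reuses the treated arrays that picked the genes.

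**Figure D2:**
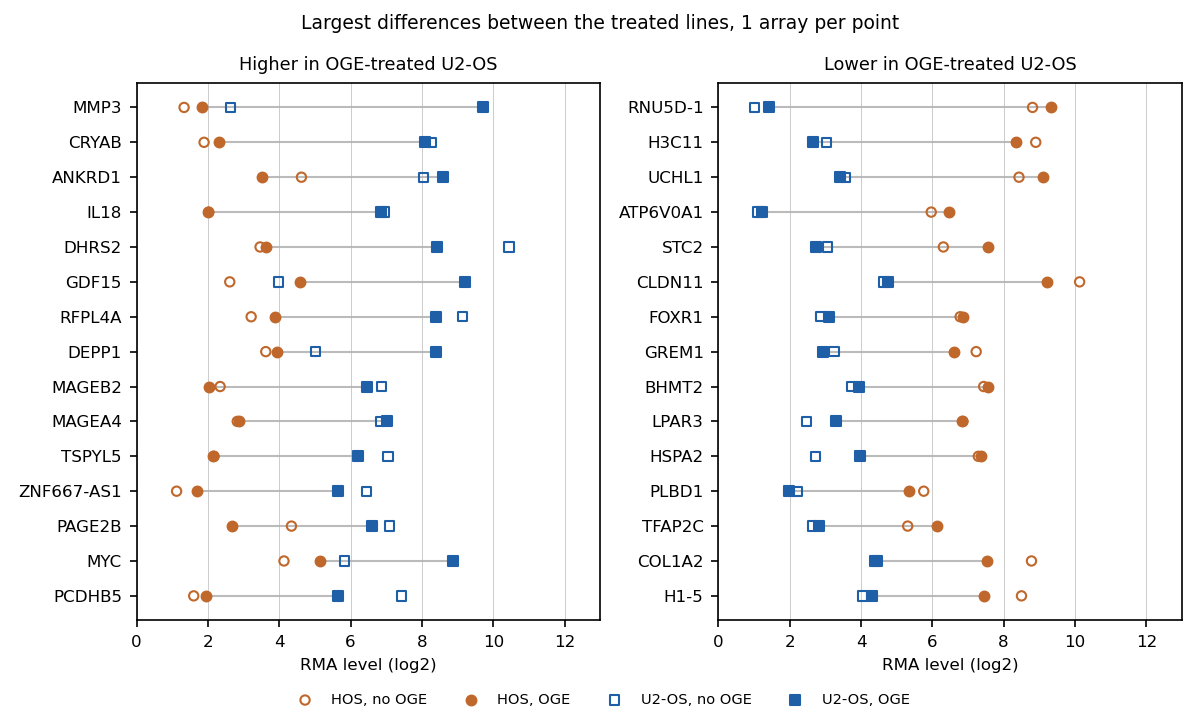
RMA levels (log2) of the 15 genes with the largest difference in each direction between the treated lines, 1 array per point. Filled symbols are the OGE-treated arrays and the grey line joins them. In MMP3, GDF15, DEPP1 and MYC the treated U2-OS array lies well apart from the untreated one, whereas CRYAB and IL18 differ little between the states.

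Among the genes higher in U2-OS with OGE and close to HOS without it, the largest differences were those of HSPA6, HMOX1 and DDIT4. HSPA6, an HSP70 chaperone that is nearly silent until cells are stressed, was at 3.56 and 3.28 in HOS and at 3.50 and 6.8 in U2-OS. The other 3 arrays thus lay close together and the treated U2-OS array was 3.52 above treated HOS. HSPA6 has the near-identical copy HSPA7, whose RNA its probes could also read. HMOX1, heme oxygenase 1, an antioxidant enzyme under NRF2, was at 5.00 and 6.14 in HOS and at 5.18 and 9.37 in U2-OS, a difference of 3.23 against 0.18 without OGE. DDIT4, an inhibitor of mTORC1 signalling, was at 5.19 and 7.20 in HOS and at 5.52 and 10.41 in U2-OS, a difference of 3.21 against 0.33. HMOX1 and DDIT4 were higher with OGE than without in both lines, by more in U2-OS, while HSPA6 was higher with OGE in U2-OS alone. The ubiquitin-editing NF-kB inhibitor TNFAIP3 was higher by 2.29, TRIML2 by 3.08, the fatty acid hydroxylase CYP4F11 by 2.63 and the keratin-associated gene KRTAP21-2 by 2.13. MROH1 was also higher by 2.13 in the probe set used, but by only 0.02 in its other probe set. Of the 114 genes of this kind, 71 were higher with OGE in U2-OS by at least 1, 4 were lower in HOS by at least 1, 1 of them counted in both, and 40 reached neither.

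The promoters of HSPA6, HK2 and ADM are shown as examples from the genes that differed between the lines with OGE and were close or opposite without it. These genes and the motifs marked in them were chosen by hand. The antioxidant response core TGANNNNGC was not marked, though the HSPA6 window holds 2 matches to it. Each is the 250 bases directly before the RefSeq gene start on the sense strand, build GRCh38.p14, at chr1:161524290-161524539 for HSPA6, chr2:74833877-74834126 for HK2 and chr11:10304823-10305072 for ADM. Capitals mark letter matches on either strand to a heat shock element pair (GAANNTTC) or an AP-1 site (TGANTCA) in HSPA6, to the hypoxia response core (ACGTG, on the other strand CACGT) in HK2 and to a TATA box (TATAAA) in ADM.
HSPA6: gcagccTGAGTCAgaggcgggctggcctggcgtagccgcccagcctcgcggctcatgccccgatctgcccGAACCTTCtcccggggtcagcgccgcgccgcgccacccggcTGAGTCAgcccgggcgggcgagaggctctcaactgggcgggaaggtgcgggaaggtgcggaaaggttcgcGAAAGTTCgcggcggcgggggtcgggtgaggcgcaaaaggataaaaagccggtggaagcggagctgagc
HK2: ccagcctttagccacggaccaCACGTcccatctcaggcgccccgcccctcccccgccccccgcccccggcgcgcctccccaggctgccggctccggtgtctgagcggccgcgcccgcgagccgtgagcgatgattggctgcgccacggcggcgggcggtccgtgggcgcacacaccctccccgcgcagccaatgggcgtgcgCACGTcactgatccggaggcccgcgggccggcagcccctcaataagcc
ADM: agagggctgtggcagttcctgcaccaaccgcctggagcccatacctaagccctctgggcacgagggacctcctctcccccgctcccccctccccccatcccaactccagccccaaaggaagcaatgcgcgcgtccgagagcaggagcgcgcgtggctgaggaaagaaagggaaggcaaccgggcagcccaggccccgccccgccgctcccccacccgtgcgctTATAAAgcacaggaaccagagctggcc

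The HSPA6 window held 2 heat shock pairs, starting 180 and 69 bases before the gene start, and 2 AP-1 matches at 244 and 139 bases. HK2 held 2 hypoxia cores at 229 and 48 bases, and ADM a TATA box 27 bases before the start. A window was found in the RefSeq table for 9120 of the 11492 genes at the floor. A heat shock pair was in 3.79% of these, in 8 of 94 (8.51%) of the genes higher in U2-OS with OGE and close or opposite without, and in 3.79% of their lower counterparts. A TATA box was in 6.04% of all windows, in 14 of 94 (14.9%) of the former and in 3.79% of the latter. The AP-1 letters were in 4.06% of all windows, in 6.38% of the former and in 8.66% of the genes higher in U2-OS in both states. The hypoxia core was about as common in the former as in all windows (25.5% and 23.4%), as was the antioxidant response core TGANNNNGC (34% and 35.7%). The TATA box was also above its share of all windows in genes called in both states, at 10.2% of those higher and 8.24% of those lower in U2-OS. All these shares rest on few genes and describe letters only.

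GADD45G, a growth arrest and stress gene, had the largest difference among the genes lower in U2-OS with OGE and close without it. It was at 3.97 and 6.10 in HOS and at 3.52 and 3.67 in U2-OS, so the treated HOS array alone was high and the difference was -2.43. The cyclin-dependent kinase activator CDC25A and the ribosomal protein gene RPL10 were likewise highest in treated HOS, at 6.98 and 8.90 against 5.22 and 7.18 in treated U2-OS. For CAND1, which recycles cullin ubiquitin ligases, the treated U2-OS array was the low one, at 3.76 against 5.88 in treated HOS and 5.96 in untreated U2-OS. The RNA polymerase I factor RRN3 (-1.88), the general transcription factor subunit GTF2A1 (-1.87) and ARHGAP11B (-1.81) were likewise lowest in treated U2-OS. DBF4B, a regulator of the replication kinase CDC7, had a difference of -1.70 in the probe set used and of -0.79 in its other one. Of these 158 genes, 60 were lower with OGE in U2-OS by at least 1, 15 were higher in HOS by at least 1, and 83 reached neither.

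Other differences of the untreated lines were not there with OGE. This held for 429 genes, 26.6% of those called without OGE, and 312 of them had been higher in untreated U2-OS. KCNK1, a background potassium channel, was at 4.88 and 4.95 in HOS and at 7.69 and 5.26 in U2-OS, so that the difference was 2.81 without OGE and 0.31 with it. The hedgehog receptor PTCH1 (2.40 and 0.38), the phosphoinositide kinase subunit PIK3R3 (2.40 and -0.11) and the transcription factor TCF4 (2.22 and 0.42) likewise met the HOS level in treated U2-OS. CALHM5, GASK1B and the synaptic adhesion gene NLGN4X were below the floor with OGE. In ARRDC3, an arrestin-like adaptor, HOS met U2-OS instead, at 4.51 and 6.97 in HOS and at 6.72 and 7.07 in U2-OS. Of the 312 genes, 167 were lower with OGE in U2-OS by at least 1, and 14 were higher in HOS by at least 1.

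Of the 117 genes lower in untreated U2-OS and level or opposite with OGE, SNORD14C differed the most. It is a small nucleolar RNA in an intron of the chaperone gene HSPA8, and it was at 6.92 and 7.50 in HOS and at 3.46 and 7.53 in U2-OS. SNORD14E, from the same host gene, was at 4.30 and 5.42 in HOS and at 1.76 and 5.35 in U2-OS. HSPA8 itself was at 12.16 and 12.13 in HOS and at 11.20 and 10.72 in U2-OS, so host and intronic RNAs did not run in parallel in these probe sets. EPAS1, which encodes HIF-2alpha, was at 6.39 and 6.5 in HOS and at 4.50 and 6.14 in U2-OS. The nucleolar gene NOP16, the RNA polymerase III subunit POLR3G and the pseudogene ECEL1P2 had untreated differences of -2.10, -2.13 and -1.92 and treated ones from -0.20 to -0.10. Of the 117 genes, 37 were higher with OGE in U2-OS by at least 1, 16 were lower in HOS by at least 1, and 64 reached neither.

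The lines changed places in 5 genes, all higher in U2-OS with OGE and lower without. HK2, the hexokinase that commits glucose to glycolysis, was at 7.52 and 7.86 in HOS and at 4.90 and 9.31 in U2-OS. ADM, the vasodilator peptide adrenomedullin, was at 7.09 and 7.72 in HOS and at 4.92 and 9.68 in U2-OS. In both, untreated U2-OS was the lowest and treated U2-OS the highest of the 4 arrays. NIPAL4 had a difference of 1.99 with OGE and -1.21 without, the GTP-binding gene GEM of 1.22 and -1.80, and the antisense RNA THUMPD3-AS1 of 1.07 and -1.33. These reversals were not tested.

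**Figure D3:**
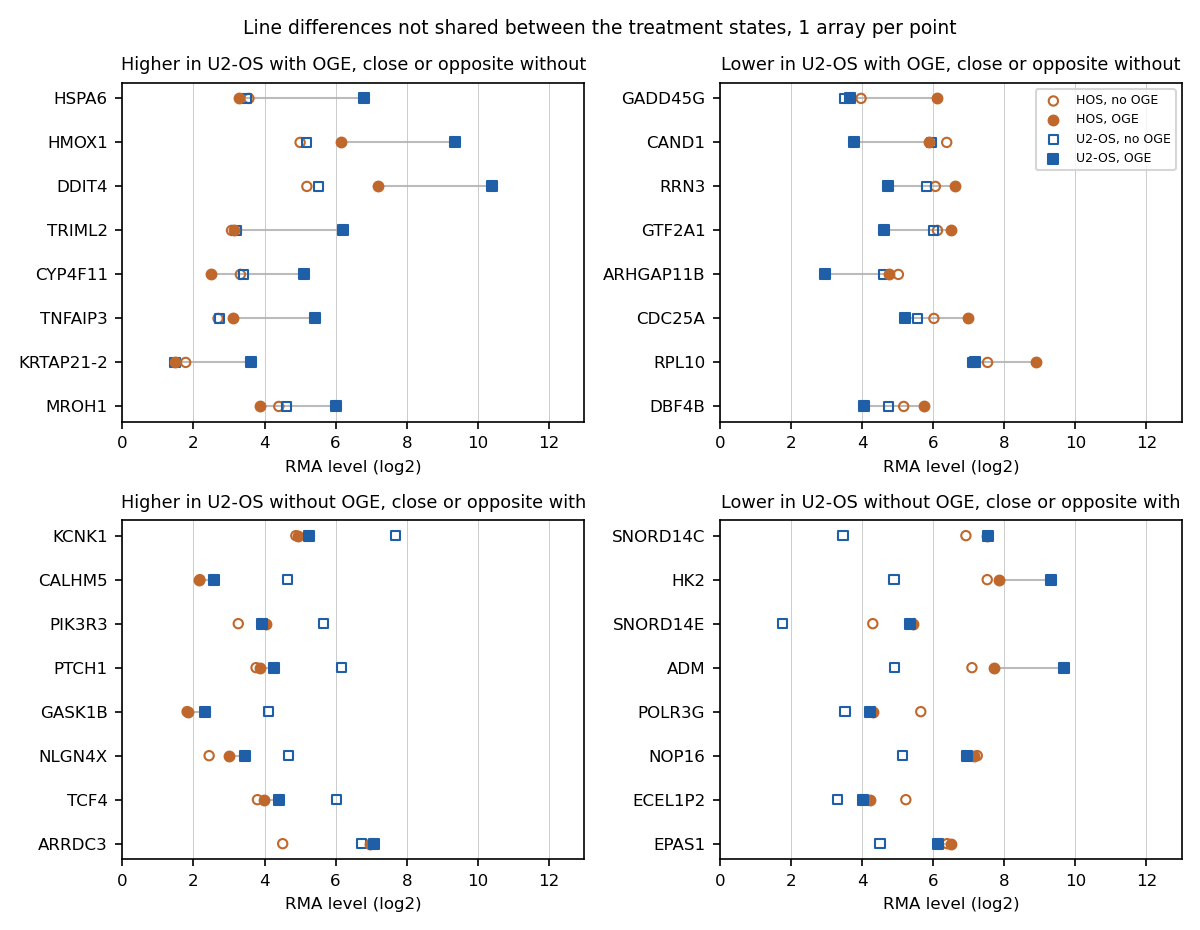
RMA levels (log2) of the 8 largest genes of each kind whose line difference was past 2-fold in one treatment state and under 0.5 or opposite in the other, 1 array per point. In HSPA6, HMOX1 and DDIT4 the treated U2-OS array (filled square) is highest, in GADD45G the treated HOS array (filled circle), and in KCNK1 the untreated U2-OS array (open square).

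The gene lists describe programmes by their counts of called members. The share called is given over the members at the floor, beside 11.1% of all genes at the floor with OGE and 13.9% without. A list's median is over its measured members at the floor unless stated, beside -0.02 for all genes there. Among 37 measured ATF4 and CHOP targets, 36 of them at the floor, 6 were higher and 3 lower in treated U2-OS (25% called), with a median of 0.19. Beside GDF15, DDIT4 and STC2, the stress cofactor NUPR1 was higher by 2.93 and ATF3, a stress-induced transcription factor, by 1.95, while the serine synthesis enzyme PSAT1 had a difference of -2.03. ATF3 was at 4.22 and 4.90 in HOS and at 3.87 and 6.85 in U2-OS, so again the treated U2-OS array stood alone. Without OGE the ATF4 and CHOP list had 4 higher and 4 lower of 35 at the floor (22.9%). In both states 5 members were called the same way.

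Of 26 measured NRF2 targets, 22 of them at the floor, 4 were higher and 3 lower in treated U2-OS (31.8% called). HMOX1, the aldo-keto reductases AKR1C1 (2.16) and AKR1C3 (1.76) and the biliverdin reductase BLVRB (1.13) were higher in treated U2-OS. GCLM, which limits glutathione synthesis, was at 3.83 and 5.94 in HOS and at 3.84 and 4.63 in U2-OS, a difference of -1.31. The pentose phosphate enzyme TKT had a difference of -1.17, and the thioredoxin reductase TXNRD1, outside the naming rule and chosen after its value was seen, of -1.12. The median difference of the 22 was -0.49 with OGE and 0.07 without, and with OGE it was -0.345 over all 26 and -0.31 with quantile normalization. The mean level over all 26 was 6.4 in both treated lines, so median and mean differed. AKR1C1 differed by only 0.40 in its other probe set, and the AKR1C genes are near-identical copies. In the untreated pair 1 NRF2 target was higher and 1 lower of 21 at the floor (9.52%).

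Of 32 measured heat shock proteins and cochaperones, 28 at the floor, 5 were higher and 4 lower in treated U2-OS (32.1% called), and the median was -0.14. Beside CRYAB and HSPA6, the cochaperone DNAJB5 was higher by 1.91. HSPA4L (-2.17) and HSPA8 (-1.41) were lower, as was HSPA2. In the untreated pair this list had 7 higher and 2 lower of 27 at the floor (33.3%), with a median of 0.17. In both states 6 members were called the same way. Of 24 chaperones and quality control genes of the endoplasmic reticulum, 23 at the floor, 6 were higher and 1 lower in treated U2-OS (30.4% called), with a median of 0.34. The degradation factors DERL1 (1.57), EDEM1 (1.43) and HERPUD1 (1.05) and the cochaperones DNAJB9 (1.32) and SDF2L1 (1.22) were higher, and calnexin, CANX, had a difference of -1.12. Without OGE 3 members of the reticulum list were higher and 0 lower of 23 at the floor (13%).

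Of 38 measured hypoxia and glycolysis genes, 37 at the floor, 9 were higher and 1 lower in treated U2-OS (27% called), with a median of 0.50. Without OGE the same list had 4 higher and 6 lower of 36 at the floor (27.8%), and 5 of those 6 were level or opposite with OGE. NDRG1, a stress and hypoxia gene, was at 6.09 and 7.49 in HOS and at 6.36 and 9.59 in U2-OS, a difference of 2.10. The glucose transporter SLC2A3 was at 5.93 and 8.52 in HOS and at 7.85 and 10.51 in U2-OS, so both lines were higher with OGE and the gap between them stayed (1.92 without, 1.99 with). The enolase ENO2 was higher by 2.09, while the phosphofructokinase PFKP, at 8.67 and 6.83 in the treated lines, was lower.

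Of 31 measured immediate early and feedback genes, 27 at the floor, 6 were higher and 2 lower in treated U2-OS (29.6% called), with a median of 0.29. The AP-1 subunit JUN was at 6.69 and 6.75 in HOS and at 6.91 and 8.45 in U2-OS, which gave a difference of 1.70. KLF10 and EGR1 were higher by 2.03 and 1.46. The MAP kinase phosphatase DUSP4 was lower (-1.45). Without OGE this list had 4 higher and 2 lower of 25 at the floor (24%). Of 21 metallothionein and zinc transporter genes, 20 at the floor, 5 were higher and 1 lower in treated U2-OS (30% called). MT2A (1.98), MT1X (1.94), MT1B (1.27) and MT1G (1.19), which bind zinc and copper, were higher, as was the zinc exporter SLC30A1 (1.05), and the importer SLC39A1 was lower (-1.22). The MT1 genes are near-identical copies whose probes may not separate them. In the untreated pair the metallothionein and zinc list had 3 higher and 3 lower of 19 at the floor (31.6%). In both states 4 members were called the same way.

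**Figure D4:**
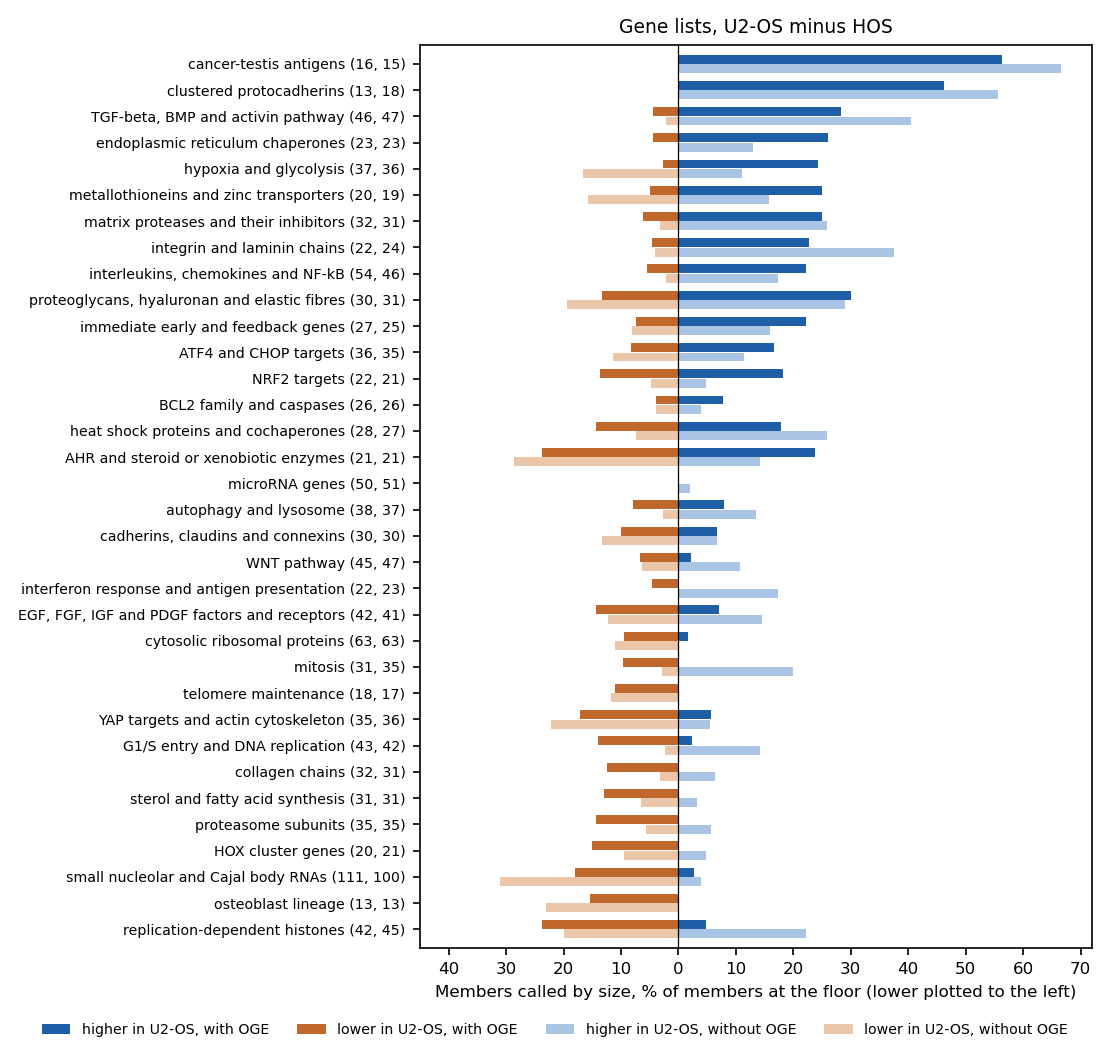
Share of the members at the floor that were called higher (to the right) or lower (to the left) in U2-OS, in percent, for the lists shown, with OGE (dark bars) and without (pale bars), with the members at the floor with and without OGE in brackets. With OGE the hypoxia list has 9 higher and 1 lower of 37, against 4 and 6 of 36 without, and the mitosis list has 0 higher and 3 lower of 31, against 7 and 1 of 35.

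Of 39 measured mitosis genes, 31 at the floor, 0 were higher and 3 lower in treated U2-OS, so that the share called (9.68%) was near that of all genes. The median was -0.32. Without OGE 7 were higher and 1 lower of 35 at the floor (22.9%), with a median of 0.32. The kinetochore gene SKA3 was at 5.51 and 4.95 in HOS and at 4.78 and 3.0 in U2-OS, a difference of -1.95. The checkpoint kinase BUB1B was at 7.23 and 6.18 in HOS and at 6.59 and 4.55 in U2-OS, a difference of -1.63. Both genes were lower with OGE than without in both lines, and treated U2-OS was the lowest. The third gene, the kinase AURKB, was close to the threshold (-1.03) and missed it with quantile and with cyclic loess normalization. Of 45 genes that start S phase or copy DNA, 43 at the floor, 1 was higher and 6 were lower (16.3% called), and 5 of the 6 were close or opposite without OGE. The D-type cyclin CCND2 was higher by 3.33, while SKP2, POLA1, CDC6, CCND1 and MCM4 had differences from -1.38 to -1.11. CCND2 was at 5.51 and 5.39 in HOS and at 8.91 and 8.72 in U2-OS, so it hardly differed between the states, whereas CCND1 was at 7.56 and 7.20 in HOS and at 7.25 and 6.08 in U2-OS.

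All 35 measured proteasome subunits were at the floor. In treated U2-OS 0 were higher, 5 lower and 30 not called, a share of 14.3%, with a median of -0.46 with OGE and -0.22 without. The median with OGE was -0.30 with quantile and -0.33 with cyclic loess normalization. PSMC1, an ATPase of the base, was at 7.98 in treated HOS and 6.27 in treated U2-OS, and PSMB4 (-1.39), PSMB6 (-1.20), PSMD4 (-1.10) and PSMD12 (-1.05) followed. Of 41 autophagy and lysosome genes, 38 at the floor, 3 were higher and 3 lower (15.8% called). The protease CTSB (1.57), the receptor TAX1BP1 (1.21) and GABARAPL2 (1.03) were higher and the galactosidase GLA (-1.12), ATG16L1 (-1.08) and ATP6V0A1 lower. In the BCL2 and caspase list of 31, with 26 at the floor and 11.5% called, the survival gene BCL2L1 (1.31) and CASP4 (1.04) were higher, and MCL1, at 9.46 in treated HOS and 8.11 in treated U2-OS, was lower. Sterol and fatty acid synthesis had 0 higher and 4 lower of 32 (12.9% of the 31 at the floor), the elongase ELOVL2 (-2.23), SC5D (-1.85), EBP (-1.42) and IDI1 (-1.42). Cytosolic ribosomal protein genes had 1 higher and 6 lower of 63, all at the floor (11.1%, the share of all genes), with a median of -0.25, led by RPL10 (-1.72) and RPS13 (-1.33), against RPL22L1 (1.32). Ribosomal protein genes have many near-identical pseudogenes, so single values are uncertain.

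Of 53 measured genes of the TGF-beta, BMP and activin pathway, 46 at the floor, 13 were higher and 2 lower in treated U2-OS and 31 were not called (32.6% called), with a median of 0.30. The BMP antagonist NOG was at 4.71 and 4.28 in HOS and at 7.41 and 7.22 in U2-OS, a difference of 2.94, while GREM1, another antagonist, was higher in HOS. The latent TGF-beta binding protein LTBP1 was at 3.52 and 3.02 in HOS and at 7.95 and 5.43 in U2-OS, so its difference was 4.43 without OGE and 2.41 with it. INHBA, the activin A subunit, was higher by 2.23 and the ligand gene TGFB2 by 1.71. BMP2, which drives bone formation, was at 3.89 and 4.15 in HOS and at 4.24 and 6.10 in U2-OS, a difference of 1.95 that was 0.35 without OGE. Without OGE the list had 19 higher and 1 lower of 47 at the floor (42.6%) and a median of 0.77, so fewer of its members separated the treated lines. In the limma line term 7 members were higher and 1 was lower.

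Matrix proteases and their inhibitors had 8 higher and 2 lower of 47 (31.2% of the 32 at the floor), with a median of 0.18. The gelatinase MMP2 was at 4.68 and 4.99 in HOS and at 7.85 and 7.54 in U2-OS, a difference of 2.55. The collagenase MMP1 was at 3.17 and 3.18 in HOS and at 2.68 and 5.15 in U2-OS, so that it was higher only in treated U2-OS, as MMP3 was. PLAUR, the urokinase receptor (1.61), the inhibitor TIMP1 (1.57), MMP10 (1.24) and MMP9 (1.24) were higher too. MMP10 was at 2.54 and 2.56 in HOS and at 2.56 and 3.80 in U2-OS. It thus was higher only in treated U2-OS, where it lay just above the array median. Proteoglycan, hyaluronan and elastic fibre genes had 9 higher and 4 lower of 44 (43.3% of the 30 at the floor). The microfibril gene MFAP2 (2.77), the link protein HAPLN1 (2.68), the tenascin TNC (2.67), the glypicans GPC6 (2.65) and GPC4 (2.13) and the hyaluronan synthase HAS2 (2.58) were higher. HAPLN1 was at 2.37 and 2.49 in HOS and at 7.91 and 5.17 in U2-OS, so its difference was 5.54 without OGE. In limma 6 members of this list were higher and 3 lower.

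**Figure D5:**
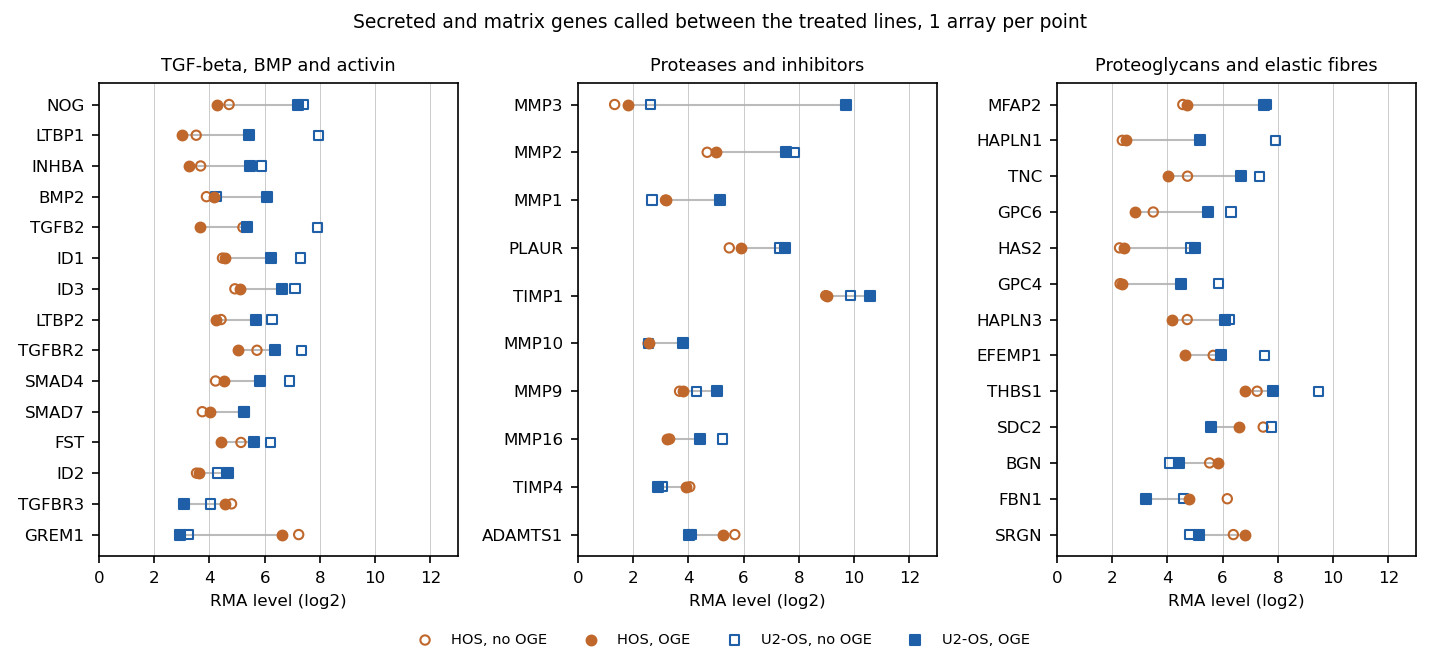
RMA levels (log2) of the genes of 3 lists that were called between the treated lines, 1 array per point and ordered by the treated difference. MMP3 and MMP1 are high in the treated U2-OS array alone (filled squares, 9.71 and 5.15), while NOG, MMP2 and MFAP2 are high in both U2-OS arrays.

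Of 43 measured collagen chains, 32 at the floor, 0 were higher and 4 lower in treated U2-OS. That share (12.5%) was near that of all genes, and the median was -0.085. COL1A2 was at 8.78 and 7.53 in HOS and at 4.46 and 4.38 in U2-OS, the largest of these. COL3A1 was at 8.28 and 7.15 in HOS and at 7.45 and 5.46 in U2-OS, which gave -1.69, and COL5A2 and COL1A1 had -1.42 and -1.36. These 3 were lower with OGE than without in both lines. Of 35 integrin and laminin chains, 22 at the floor and 27.3% of them called, 5 were higher, among them ITGA2 (1.86), LAMB3 (1.70), ITGA3 (1.35) and ITGB5 (1.34), and ITGA4 (-1.23) was lower. ITGA5, the fibronectin receptor chain, was just at the threshold with 1.00. The YAP and actin list of 38, with 35 at the floor, had 2 higher, 6 lower and 27 not called (22.9% called) and a median of -0.23. The contractile genes ACTG2 (-3.09), TAGLN (-2.65), MYH10 (-1.93) and CNN2 (-1.66) were among the 6. The YAP target ANKRD1 and the YAP partner TEAD2 (1.69) were the 2 higher. Among 74 cadherins, claudins and connexins, with 30 at the floor and 16.7% called, CLDN1 (2.66) and CLDN4 (1.51) were higher and CLDN11, CLDN3 (-1.06) and the junction scaffold TJP1 (-1.38) lower.

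Cytokine and NF-kB genes had 12 higher and 3 lower of 140 measured, most of which (86) were below the floor. The share called was 27.8% at the floor, and the median was 0.23 at the floor and 0.03 over all 140. IL2RB, an interleukin receptor chain, was at 3.77 and 3.80 in HOS and at 6.76 and 6.67 in U2-OS. The chemokine CCL2 was higher by 2.21 in treated U2-OS, and IL10RA (-2.81) and the chemokine receptor CXCR4 (-2.22) were lower. The NF-kB inhibitors TNFAIP3 and NFKBIA were high in treated U2-OS alone, NFKBIA at 5.40 and 5.48 in HOS and at 5.25 and 7.16 in U2-OS. NFKBIA lies outside the naming rule and was chosen after its value was seen. Of 39 interferon and antigen presentation genes 0 were higher and 1, IFI35 (-1.47), was lower, 4.55% of the 22 at the floor. The WNT list of 61 had 1 higher, the transcription factor LEF1 (1.90), and 3 lower, the inhibitor DKK1 (-2.66), WNT5A (-1.59) and the coreceptor LRP5 (-1.34), 8.89% of the 45 at the floor. The growth factor list, which also counts IGF2BP1 and IGF2BP3 though they are neither factors nor receptors, had 3 higher and 6 lower of 67 (21.4% of the 42 at the floor). The RNA-binding IGF2BP1 (-2.89) and IGF2BP3 (-1.70) and the ligand PDGFC (-2.20) were lower, and TGFA (1.68) and PDGFA (1.42) higher. EGFR, the receptor of TGFA, was at 4.68 in treated HOS and 3.36 in treated U2-OS.

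Of 47 measured cancer-testis genes, 9 were higher in treated U2-OS and 0 lower (56.2% of the 16 at the floor). The median was 1.6 over the 16 at the floor and 0.16 over all 47, since 31 were low in both lines. Beside MAGEB2, MAGEA4 and PAGE2B, XAGE5 (3.15), MAGEA1 (2.37) and BAGE5 (2.29) were higher. In limma 7 of the list passed, all higher in U2-OS. Clustered protocadherins likewise had 6 higher and 0 lower of 29 (46.2% of the 13 at the floor), with PCDHB5, PCDHA6 (1.70), PCDHA13 (1.32), PCDHB11 (1.16), PCDHA8 (1.08) and PCDHA7 (1.01). Copies in these families share sequence, so probes may read several members. HOX genes had 0 higher and 3 lower of 27 (15% of the 20 at the floor), HOXB2 (-1.59), HOXD13 (-1.33) and HOXB6 (-1.0). The xenobiotic list of 32 had 5 higher and 5 lower (47.6% of the 21 at the floor). DHRS2 and the glutathione transferase GSTT1 (2.11) were higher, while the aryl hydrocarbon receptor AHR was at 3.86 in treated HOS and 2.07 in treated U2-OS and its target CYP1B1 at 4.91 and 2.49.

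Of 192 small nucleolar and Cajal body RNAs, 111 at the floor, 3 were higher and 20 lower in treated U2-OS and 88 were not called (20.7% called). The median was -0.31 at the floor and -0.14 over all. SNORD116-21, a copy of an imprinted cluster, was at 6.06 and 6.89 in HOS and at 4.71 and 3.99 in U2-OS, which gave -2.90, and SNORD116-20 and SNORD116-14 were each lower at -1.57. SNORD49A, which guides RNA methylation, had a difference of -2.01, and SNORD13P2 was higher by 1.84. SCARNA9L had -2.44 in the probe set used and 0.07 in the other, so its difference is uncertain. Without OGE the same list had 4 higher and 31 lower of 100 at the floor (35%). Of 57 replication-dependent histone genes, 42 at the floor, 2 were higher, 10 lower and 30 not called (28.6% called), and the median was -0.075. The lower ones were led by H3C11, H1-5, H4C13 (-3.03), H3C12 (-2.68), H4C4 (-2.61) and H2AC25 (-2.13). Histone copies are near identical in places, and 5 histone genes that had been higher in untreated U2-OS were level or opposite with OGE. The telomere list of 20 had 2 lower (11.1% of the 18 at the floor), the telomerase RNA TERC, at 6.46 in treated HOS and 4.96 in treated U2-OS, and the helicase BLM (-1.20). No microRNA gene was called among 189 measured, of which 50 were at the floor.

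Some called genes lay side by side in the genome. In RefSeq order among genes at the floor there were 12 runs of at least 4 neighbours called in one direction. The longest had 7 genes lower in U2-OS, LRP5, PPP6R3, GAL, CPT1A, MRPL21, IGHMBP2 and MRGPRF, with differences from -2.84 to -1.0, and 5 of them were called without OGE as well. In it the neuropeptide GAL was at 7.17 and 4.73 in the treated lines and CPT1A, which brings fatty acids into mitochondria, at 6.63 and 3.79. A run of 5 histone genes, H1-5, H3C11, H4C13, H3C12 and H2BC17, and one of 5 SNORD116 copies were lower too. Runs of 4 higher in U2-OS were ASPHD2, HPS4, SRRD and TPST2, then HIBADH, TAX1BP1, JAZF1 and CREB5, and EFR3A, KCNQ3, NDRG1 and ST3GAL1. In the first and the second of these all 4 were called without OGE too, in the last 2 were. DNA copy number was not measured here.

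The genes that were not shared between the states differed in length from all genes at the floor. The median span in RefSeq was 16.2 kb for the 114 genes higher in U2-OS with OGE and close or opposite without, and 43 kb for the 158 lower ones, against 23.8 kb for all genes at the floor. For the genes that were higher in untreated U2-OS and level or opposite with OGE it was 52.4 kb, and for those that were lower 16.2 kb. Of the latter 117 genes, 84.6% were protein coding and 10 were small nucleolar, Cajal body or nuclear RNAs. Among all 11492 genes at the floor these were 94.8% and 110. Genes called in both states had medians of 31.4 kb (higher) and 27.2 kb (lower), also above that of all genes. Among the groups not shared between the states, the shorter were the ones in which the U2-OS minus HOS difference was more positive with OGE than without. The longer of them were the ones in which that difference was more negative with OGE. Either line, or both, could have changed. In each of these groups more genes changed this way by at least 1 in U2-OS than in HOS, and many reached neither. These are descriptions across genes, with no test.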

How the data were processed

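Total RNA of HOS and U2-OS cells, with 0 or 600 μg/mL OGE for 24 h, was isolated with Trizol, amplified, biotin-labelled by a sense-strand protocol for whole transcripts and put on 1 array per sample, per the labels' protocols. The authors deposited log2 values. The submitters' processing notes name RMA without a version. RMA subtracts background, equalises the arrays' distributions at the probe level and then summarises probes, so low levels are drawn together and a shift of all genes would be lost. The deposited probe set values still differed in spread, with a standard deviation of 2.19 in treated U2-OS and 2.28 in untreated HOS. Values carry 2 decimals, and their range set the log base. Annotation build and detection calls are not given in the sources used here.

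Of 33297 probe sets, 19460 have 1 gene symbol in the platform annotation, 1754 several and 12083 none, and gene IDs linked 19429 to the RefSeq table of GRCh38.p14. Where a gene had several probe sets (769 genes), that of highest mean was used. Differences were called at a log2 size of 1 with the higher array at or above its median. limma 3.58.1 (R 4.3.3), with line and OGE as terms, gave Benjamini-Hochberg adjusted p-values at a threshold of 0.05, and was tested on simulated data. Python 3.11.15, pandas 2.3.3 and numpy 2.4.6 did the rest.

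The text names the 15 largest differences in each direction, the 8 largest of each kind not shared between the states, the genes called in opposite directions, and up to 6 members of each of 43 lists, of which 8 hold cell markers; Y-linked genes and XIST are left out. Members and lists were chosen with earlier results of these data known, and 24 genes written by symbol are in more than 1 list. The result of 1 list is not reported here. Promoter windows are the 250 bases before RefSeq starts. Alternatives were other size thresholds and floors, quantile and cyclic loess normalization, averaging probe sets within a gene, other limma settings, all measured list members and shorter runs of neighbours.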

Additional observations from a re-analysis of the deposited data

Results flagged for a closer look

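The lines changed places between the states in 5 genes. Each was called lower in untreated U2-OS than in untreated HOS and higher in treated U2-OS than in treated HOS, and the difference between the states was not tested, since there is 1 array per condition. With OGE, U2-OS exceeded HOS by 1.99 in NIPAL4, 1.96 in ADM, 1.45 in HK2, 1.22 in GEM and 1.07 in THUMPD3-AS1 on the log2 scale. In all 5 the treated U2-OS array was the highest of the 4 arrays and the untreated U2-OS array the lowest.

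Probe sets without a gene symbol, which enter no comparison above, also differed. Of 12083 such probe sets 4546 were at the floor in the treated pair and 698 of these (15.4%) were called by size, 224 higher and 474 lower in U2-OS. Of the 698, 212 were called in the same direction without OGE and 27 in the opposite direction. Of 1110 probe sets at the floor with several symbols, 130 (11.7%) were called.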

How the results depend on the processing

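Counts of called genes moved with the size threshold and the floor, as they are made to. With a threshold of 1.5-fold, 3-fold, or a floor at the 75th percentile, the treated pair had 3184, 376 and 836 called genes, of which 1774, 206 and 445 were called the same way without OGE. Genes close or opposite without OGE then numbered 1203, 36 and 159, and those close or opposite only with OGE 1568, 68 and 250. With the main threshold these 4 counts stayed within 1.5 times without a floor, after averaging probe sets, and under quantile or cyclic loess normalization. Quantile normalization shifted the median difference from -0.02 to 0.025 and the share of called genes higher in U2-OS from 43.9% to 49.8%, and 1196 of the 1279 genes were called under both. The count of the limma line term went from 354 genes to 1763 with quantile normalization, 1326 with cyclic loess, 1309 with trend and robust moderation, 749 when fitted on the upper part of the genes by mean level and 131 without the OGE term. Runs of neighbours numbered 35 with 3 genes and 60 with 1.5-fold.

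List medians with all measured members were -0.13 for HOX genes, 0.16 for cancer-testis genes, 0.02 for WNT, 0.03 for cytokines, -0.14 for small nucleolar RNAs, -0.07 for xenobiotic enzymes, 0.05 for epithelial (-0.27 at the floor), -0.005 for immune, -0.075 for endothelial (0.11 at the floor) and 0.20 for muscle markers. The ATF4 median was 0.35 with quantile normalization and 0.30 with cyclic loess, and the ribosomal one -0.0888 and -0.1155. With the mean of probe sets the xenobiotic median was -0.19 and the epithelial one -0.62. The cause of these shifts was not tested. Of 633 checks of single named genes, 620 kept direction and call. The other 13, in KRTAP21-2, CANX, AURKB, PSMD4, HOXB6, RPS27 and RPS15, kept direction and lost the call. Of the 620, 210 were under averaging of probe sets. Most named genes have 1 probe set, so averaging could not change them, and those checks show nothing about them. With 1 array per group no replicate could be left out. The OGE term of limma already sets the lines against each other within each treatment state, and the labels give no replicate numbers for a further block. Of 57 called genes with more than 1 probe set, 28 had all of them past the threshold the same way and 7 had probe sets of opposite sign.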
